A study of Homo sapiens with 16 samples.

Results

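The genes described here are BMP6 together with 3 other bone morphogenetic protein (BMP) ligands, BMP2, BMP4 and BMP7, the BMP target genes ID1, ID2, ID3, SMAD6 and SMAD7, and INHBA, a subunit of activin. They were taken as all non-control probes that the array files name for these 10 genes, which gave 14 probes of 58201 on the array (10 of 42665 gene names). Of the 14 probes, 11 exceeded background on 4 or more of the 16 arrays and were tested, at least 1 for each gene, among 34600 tested probes of 26368 genes. BMP6 was chosen by its measured rise upon HGF stimulation in the MET-edited cells, so its values in any comparison with those cells are a description and carry no test. The other 9 genes belong to the same pathway or to its activin branch.

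BMPs are secreted proteins of the TGF-beta family. A BMP dimer brings type I receptors such as BMPR1A together with type II receptors such as BMPR2 or ACVR2A, the receptors phosphorylate SMAD1, SMAD5 and SMAD9, and these enter the nucleus with SMAD4 and switch on ID1, ID2, ID3, SMAD6 and SMAD7. The ID proteins bind basic helix-loop-helix factors and keep them off DNA, while SMAD6 and SMAD7 are inhibitory SMADs that dampen the same signal. INHBA encodes the subunit of activin A, a relative that signals through SMAD2 and SMAD3. In the airway, BMP signalling is known for its part in lung branching and in basal cell differentiation.

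RNA came from 16HBE, a bronchial epithelial line of human origin immortalised with SV40 large T, and was measured on 16 single-colour microarrays, 4 for each of 4 conditions. In 16HBE-WT and 16HBE-WT+HGF cells MET was unedited, and 16HBE-ex14 and 16HBE-ex14+HGF cells were clone F, a single clone obtained with Cas9 and a guide at the splice donor of MET exon 14 so that this exon is skipped. Cells of the +HGF conditions received HGF, the MET ligand, at 20 ng/mL for 24 h, and the labels give a serum-free period of 2 h for both genotypes. As 16HBE-ex14 is 1 clone, the edit and other properties of that clone cannot be told apart. For 16HBE-WT+HGF the sample titles carry another abbreviation, and these 4 samples were placed by their descriptions. The arrays lay on 2 slides, and each of the 2 rows of a slide held 1 array of every condition. The study's methods speak of weekly replicates, but the week of an array is not given in the sources used here, so p-values measure the spread between these arrays.

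Signals are given as log2 values relative to the 75th percentile of each array, so that 0 is the level of that percentile and 1 unit is a doubling. The percentile lay between 140 and 263 intensity units over the 16 arrays, between 49% and 60.3% of the probes of an array were well above background, and arrays of 1 condition correlated at 0.9834 to 0.9917. The MET probe (hg19, chr7:116438290-116438349) had mean signals of 4.97 and 5.00 in 16HBE-WT cells without and with HGF and of 5.10 and 5.16 in 16HBE-ex14 cells, and it cannot show whether exon 14 is skipped. Neither HGF probe was well above background on any array. All 8 epithelial markers examined were well above background on the 16 arrays. Of 7 fibroblast markers, COL1A2, COL3A1, DCN and PDGFRA were so on no array, as were PECAM1, KDR and TEK of 5 endothelial markers and MS4A1 of 6 immune cell markers, whereas 2 fibroblast, 2 endothelial and 4 immune cell markers, PTPRC among them, were well above background throughout. In such bulk RNA, fewer cells of a type and less RNA per cell cannot be told apart.

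The probes for BMP4 and ID2, which differed between the genotypes, and for ID3, the gene nearest to a call upon HGF, are shown as the array files give them. Their positions are on hg19. No exon annotation of that build was used here, so exons and untranslated regions are not assigned. The ID2 probe of 60 bases spans 389 bases of the genome, so it joins separated stretches of the gene, and 1 of its frames is open up to the stop codon in capitals, which begins at base 57.
BMP4 probe, chr14:54417318-54417377, minus strand: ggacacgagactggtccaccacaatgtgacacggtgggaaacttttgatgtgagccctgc
ID2 probe, chr2:8822642-8823030, plus strand: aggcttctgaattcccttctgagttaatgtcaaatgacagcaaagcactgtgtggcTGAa
ID3 probe, chr1:23885666-23885725, minus strand: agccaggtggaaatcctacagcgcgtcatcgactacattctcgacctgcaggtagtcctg

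Promoter windows, the 250 bases before a gene start in RefSeq on GRCh38.p14, were found for 8 of the 10 genes. They are shown for BMP6 and for SMAD6 and ID2, the genes with the largest genotype differences among the other 9. Capitals mark GTCTAGAC, the palindromic SMAD binding motif, or GGCGCC, a GC-rich motif of BMP response elements. Both strands were searched.
BMP6 promoter, chr6:7725849-7726098, plus strand: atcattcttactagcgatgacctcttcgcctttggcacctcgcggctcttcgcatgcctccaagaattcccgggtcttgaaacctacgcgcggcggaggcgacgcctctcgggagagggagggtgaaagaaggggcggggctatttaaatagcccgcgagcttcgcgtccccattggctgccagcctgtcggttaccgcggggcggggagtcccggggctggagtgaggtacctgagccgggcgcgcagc
SMAD6 promoter, chr15:66701986-66702235, plus strand: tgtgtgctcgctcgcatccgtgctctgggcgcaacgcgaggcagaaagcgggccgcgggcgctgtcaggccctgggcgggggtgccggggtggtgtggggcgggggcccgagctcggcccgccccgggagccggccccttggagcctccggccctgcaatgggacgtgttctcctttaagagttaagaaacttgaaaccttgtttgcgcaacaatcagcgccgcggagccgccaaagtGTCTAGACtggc
ID2 promoter, chr2:8681806-8682055, plus strand: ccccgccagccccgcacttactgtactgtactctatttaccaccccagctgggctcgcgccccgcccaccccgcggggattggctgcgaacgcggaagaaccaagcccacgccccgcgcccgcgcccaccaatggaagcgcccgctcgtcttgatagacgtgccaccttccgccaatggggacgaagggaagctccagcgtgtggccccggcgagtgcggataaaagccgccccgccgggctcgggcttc

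GTCTAGAC occurred in the SMAD6 window, where it begins 12 bases before the gene start, and in the window of none of the 7 other genes; 0.182% of all 35116 windows hold it. GGCGCC was present in 1 of 3 start windows of BMP4, 232 bases before that start, against 16.4% of all windows. The longer BMP composite element, which contains GGCGCC, was in no window of these genes and in 0.0769% of all windows, and TGANTCA, the AP-1 motif, was in none of them against 6.57%. CAGAC, the short SMAD motif, was found for 3 of the 8 genes against 38% of all windows, and CACGTG, the E-box, for 1 of 8 against 6.34%. A gene counts if any of its start windows matches, and BMP4 and SMAD7 have several. The gene counts and window shares are therefore not like measures. A match describes these letters only.

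BMP6, a BMP ligand, gave the widest spread of the 10 genes across conditions. Its single probe (hg19, chr6:7881395-7881454) read -4.59, -4.44, -3.38 and -4.73 on the 4 16HBE-ex14 arrays and -1.28, -2.08, -0.87 and -1.05 on the 4 16HBE-ex14+HGF arrays. The 16HBE-WT arrays read -4.57, -4.49, -4.90 and -6.71, and the 16HBE-WT+HGF arrays read -5.85, -5.50, -4.36 and -5.12. The 4 stimulated 16HBE-ex14 arrays thus stood above the other 12, which overlapped one another. The probe was well above background on all 4 16HBE-ex14+HGF arrays, on 3 of the 4 16HBE-ex14 arrays and on none of the 8 arrays of unedited cells.

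The means of BMP6 were -1.32 ± 0.54 in 16HBE-ex14+HGF, -4.28 ± 0.61 in 16HBE-ex14, -5.16 ± 1.05 in 16HBE-WT and -5.21 ± 0.64 in 16HBE-WT+HGF cells (SD, n = 4 each). In this order, the first step is the one that chose BMP6, and the later steps reach groups at background. No step is thus judged against the spread of the arrays. The log2 difference upon HGF in 16HBE-ex14 cells, which chose the gene, was 2.97 (SE 0.48; 7.81-fold), with 2.83 within slide 1 and 3.1 within slide 2. With normexp background correction, which adds 50 intensity units to every spot and so shrinks differences between dim probes, it was 1.22. In 16HBE-WT cells BMP6 was below background with and without HGF, so no fold or test is read from it there.

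For comparisons with a group below background, a floored fold was computed. In it the dim group takes, per array, the higher of its own value and the lowest value called well above background. This fold is not a lower limit, since spots not so called can read higher (BMP7 up to -3.57 in 16HBE-WT+HGF cells). With HGF, the floored fold of BMP6 was 7.07-fold higher in 16HBE-ex14+HGF than in 16HBE-WT+HGF cells (mean -1.32 against a floored mean of -4.14). The log2 difference of the measured means was 3.89, and 1.09 with normexp background correction. Without HGF, the floored fold was 1.01-fold, and the measured means were -4.28 in 16HBE-ex14 and -5.16 in 16HBE-WT cells. The difference between the HGF responses of the genotypes is not given for BMP6, since it rests on arrays at background.

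**Figure D1:**
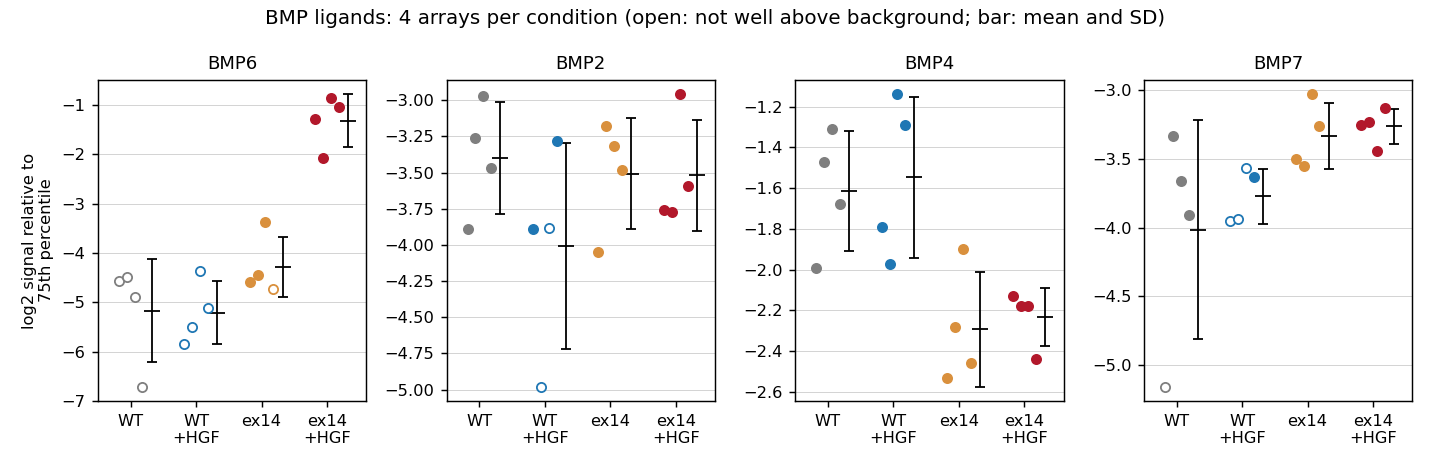
Log2 signal relative to the 75th percentile of the array (y axis) for BMP6, BMP2, BMP4 and BMP7 in the 4 conditions (x axis), 1 point per array, with the mean and SD beside the points and open points for spots not well above background; y axes differ between panels. BMP6 lies between -2.08 and -0.87 on the 16HBE-ex14+HGF arrays and at or below -3.38 on the other arrays, while BMP4 lies lower in 16HBE-ex14 than in 16HBE-WT cells.

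Of the other ligands, none was called upon HGF stimulation, and BMP4 was lower in 16HBE-ex14 than in 16HBE-WT cells. BMP4, a ligand of lung development (hg19, chr14:54417318-54417377), read -1.99, -1.47, -1.31 and -1.68 in 16HBE-WT and -2.53, -2.28, -1.90 and -2.46 in 16HBE-ex14 cells. With HGF it read -1.79, -1.97, -1.14 and -1.29 in 16HBE-WT+HGF and -2.13, -2.18, -2.18 and -2.44 in 16HBE-ex14+HGF cells. The genotypes overlapped by 1 array without HGF and did not overlap with HGF.

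In limma, the BMP4 log2 difference between genotypes was -0.68 without HGF (SE 0.20, adjusted p = 0.0273) and -0.68 with HGF (SE 0.20, adjusted p = 0.0239). It was -0.67 and -0.69 within the slides without HGF, and -0.27 and -1.10 with HGF. The call did not stand with normexp background correction (-0.44 and -0.42, under the fold limit) or with scaling to the array median (-0.54, adjusted p = 0.0816, and -0.59, adjusted p = 0.059) or to the E1A spike-ins (-0.60, adjusted p = 0.106, and -0.65, adjusted p = 0.078), and without HGF also not with no filter on dim probes (adjusted p = 0.0552) or with only the arrays compared (adjusted p = 0.0522). It was also lost without 16HBE-ex14 replicates 1, 2 or 4 or 16HBE-WT replicates 2 or 3 in the comparison without HGF (adjusted p from 0.0535 to 0.0818), and without 16HBE-WT+HGF replicates 3 or 4 or 16HBE-ex14+HGF replicate 4 with HGF (0.0694 to 0.0769).

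BMP2, a ligand close to BMP4 in sequence (hg19, chr20:6760810-6760869), had mean signals of -3.40 ± 0.39 and -4.01 ± 0.71 in 16HBE-WT cells without and with HGF, and of -3.51 ± 0.38 and -3.52 ± 0.38 in 16HBE-ex14 cells (SD, n = 4). The conditions overlapped, and 2 of the 4 16HBE-WT+HGF arrays were not well above background. Its HGF difference was -0.61 in 16HBE-WT (95% interval -1.30 to 0.07, limma adjusted p = 1) and -0.01 in 16HBE-ex14 cells (-0.70 to 0.67, adjusted p = 0.993).

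BMP7, a ligand of the same subfamily as BMP6, had 3 probes. The probe at hg19 chr20:55745555-55745614 was tested, and the others were not well above background on any array. The tested probe read -5.16, -3.33, -3.66 and -3.91 in 16HBE-WT and -3.50, -3.55, -3.03 and -3.26 in 16HBE-ex14 cells, and the lowest of these arrays was below background. The genotype difference was 0.68 without HGF (95% interval 0.06 to 1.29, limma adjusted p = 0.123) and 0.51 with HGF (-0.11 to 1.12, adjusted p = 0.25), where the groups did not overlap but only 1 of 4 16HBE-WT+HGF arrays was well above background. With normexp background correction both turned, to -0.05 and -0.12. With 1 array left out the first ranged from 0.30 to 0.91. It was called only without 16HBE-WT replicate 2 (0.91, adjusted p = 0.0402).

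Among the target genes, ID2 was lower and SMAD6 higher in 16HBE-ex14 than in 16HBE-WT cells, with and without HGF, while ID1, ID3 and SMAD7 passed the test in neither comparison. ID2 (hg19, chr2:8822642-8823030) read 0.17, 0.40, 0.25 and 0.02 in 16HBE-WT and -0.89, -1.21, -0.83 and -1.22 in 16HBE-ex14 cells. With HGF it read -0.01, 0.11, 0.61 and 0.27 in 16HBE-WT+HGF and -1.06, -0.90, -1.21 and -0.61 in 16HBE-ex14+HGF cells. Every array of the edited clone was below every array of unedited cells.

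The ID2 genotype difference was -1.25 without HGF (SE 0.16, 2.38-fold lower, limma adjusted p = 9.47e-05) and -1.19 with HGF (SE 0.16, 2.28-fold lower, adjusted p = 0.000116). A second ID2 probe (hg19, chr2:8824282-8824341) gave -1.45 (adjusted p = 0.000233) and -1.40 (adjusted p = 0.000262), again with no overlap of the arrays. Both comparisons remained called for ID2 in all 29 alternative fits.

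SMAD6, an inhibitory SMAD that acts mainly on BMP receptors and SMAD1 (hg19, chr15:67074263-67074322), read -4.27, -4.16, -3.66 and -3.99 in 16HBE-WT and -2.40, -1.86, -2.17 and -1.82 in 16HBE-ex14 cells. With HGF it read -3.69, -4.01, -3.61 and -4.42 in 16HBE-WT+HGF and -1.88, -2.23, -2.08 and -1.95 in 16HBE-ex14+HGF cells. All 8 arrays of the edited clone were above all 8 of unedited cells, of which 6 were well above background. SMAD6 was 3.88-fold higher without HGF (log2 difference 1.96, SE 0.19, limma adjusted p = 9.71e-06) and 3.72-fold higher with HGF (1.89, SE 0.19, adjusted p = 1.05e-05). With normexp background correction the differences were 0.48 (adjusted p = 0.000279) and 0.44 (adjusted p = 0.00059), under the fold limit, and the other 28 fits called both.

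**Figure D2:**
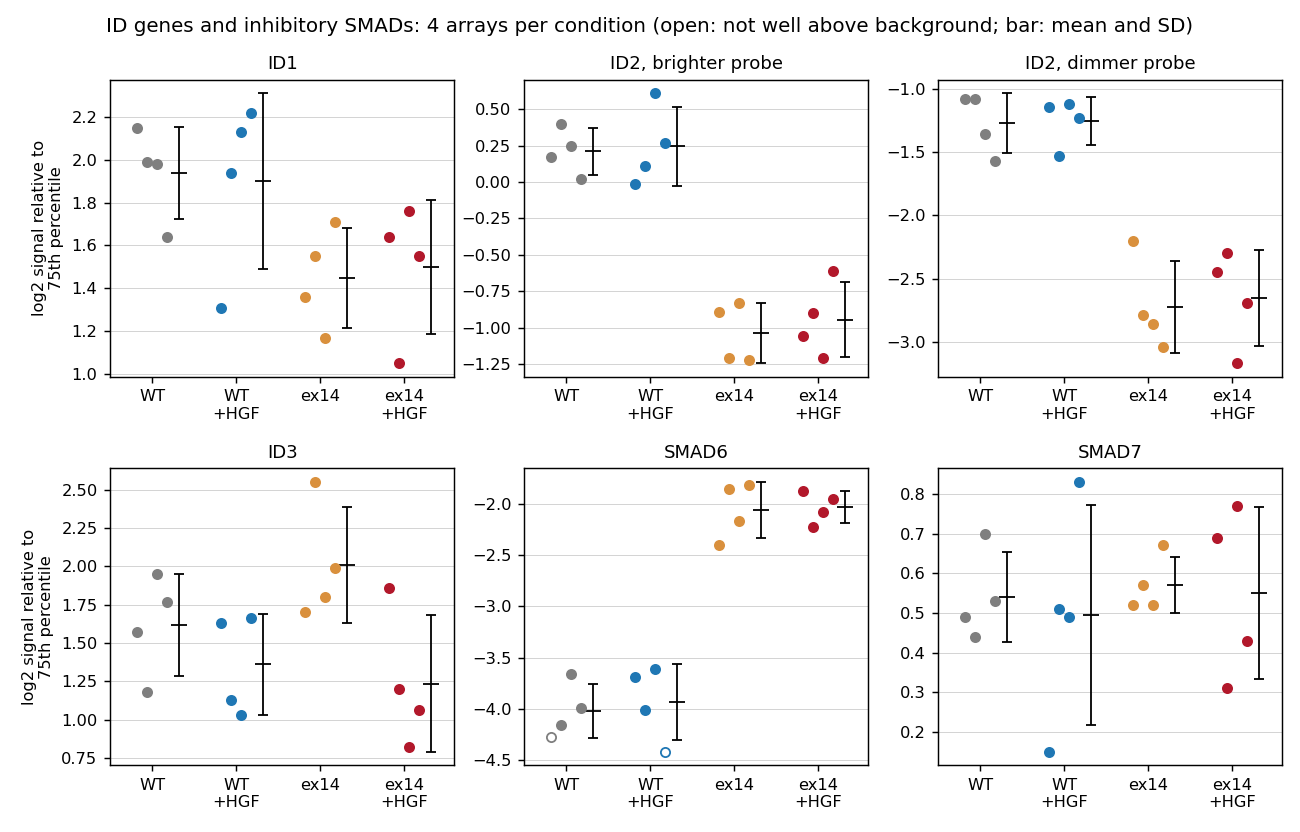
Log2 signal relative to the 75th percentile of the array (y axis) for ID1, both ID2 probes, ID3, SMAD6 and SMAD7 in the 4 conditions (x axis), 1 point per array, with the mean and SD beside the points and open points for spots not well above background; y axes differ between panels. ID2 is lower and SMAD6 higher on all 8 arrays of the edited clone than on the 8 arrays of unedited cells, and within each genotype the ID2 and SMAD6 arrays with and without HGF overlap.

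ID3 had the largest HGF difference among the genes tested in 16HBE-ex14 cells, and it was not called. Its probe (hg19, chr1:23885666-23885725) read 1.70, 2.55, 1.80 and 1.99 without and 1.86, 1.20, 0.82 and 1.06 with HGF in 16HBE-ex14 cells, so that 1 stimulated array lay within the unstimulated range. The log2 difference was -0.77 (SE 0.25, 95% interval -1.31 to -0.24, limma adjusted p = 0.134), -0.59 within slide 1 and -0.96 within slide 2. With 1 array left out it ranged from -0.98 to -0.59 (adjusted p from 0.0431 to 0.379). It was called only without 16HBE-ex14+HGF replicate 1 (-0.98, adjusted p = 0.0431). In 16HBE-WT cells the ID3 difference was -0.26 (95% interval -0.79 to 0.28), and the difference between the responses was -0.52 (-1.27 to 0.24, adjusted p = 1).

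ID1, the BMP target most often read as a sign of the pathway (hg19, chr20:30194158-30194217), had means of 1.94 ± 0.21 and 1.90 ± 0.41 in 16HBE-WT cells without and with HGF, and of 1.44 ± 0.23 and 1.5 ± 0.31 in 16HBE-ex14 cells (SD, n = 4). Its arrays overlapped in each comparison. The genotype difference was -0.50 without HGF (95% interval -0.93 to -0.06, limma adjusted p = 0.114) and -0.40 with HGF (-0.84 to 0.04, adjusted p = 0.199). With 1 array left out the latter ranged from -0.60 to -0.25. It was called only without 16HBE-WT+HGF replicate 1, the lowest array of its condition at 1.31 (-0.60, adjusted p = 0.0344). Upon HGF in 16HBE-ex14 cells, ID1 moved by 0.06 (-0.38 to 0.49), beside the 2.97 of the ligand BMP6.

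SMAD7, the inhibitory SMAD shared by BMP and activin signalling (hg19, chr18:46446782-46446841), had the narrowest intervals of the set. Without and with HGF, its means were 0.54 and 0.50 in 16HBE-WT cells and 0.57 and 0.55 in 16HBE-ex14 cells. No difference exceeded 0.06 in size, and the interval for HGF in 16HBE-ex14 cells ran from -0.31 to 0.27.

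INHBA was measured by 10 spots of a probe (hg19, chr7:41729246-41729305) that were averaged. Without and with HGF, its means were 3.96 ± 0.39 and 4.01 ± 0.31 in 16HBE-WT cells and 3.99 ± 0.22 and 4.27 ± 0.33 in 16HBE-ex14 cells (SD, n = 4). The conditions overlapped, and the largest difference was 0.27 upon HGF in 16HBE-ex14 cells (95% interval -0.19 to 0.74, limma adjusted p = 0.644). The other INHBA probe (hg19, chr7:41706792-41706851), which the files tie to an Ensembl transcript, was well above background on 2 arrays and was not tested.

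Counted over the genes, HGF in 16HBE-ex14 cells called none of the 9 members tested there, and 1, ID3, had an unadjusted limma p under 0.05. The same fit called 2.00% of all tested probes. In 16HBE-WT cells none of the 9 genes other than BMP6, which was at background there, was called or had an unadjusted p under 0.05, and limma called 0% of all probes (0 of 34600, with 1694 at an unadjusted p under 0.05). Between genotypes 3 of 9 genes were called without HGF, against 9.40% of all probes, and 3 of 9 with HGF, against 10.8%; they were BMP4, ID2 and SMAD6 both times. The arrays of the genotypes did not overlap for 2 of 9 genes without HGF (21.4% of all probes) and for 4 of 9 with HGF (23.9%). The difference between the HGF responses called none of 9 genes and 0% of all probes. The median log2 difference over the 9 genes was 0.06 for HGF in 16HBE-ex14 cells, 0.03 between genotypes without HGF and 0.06 with HGF, beside medians of 0.05, -0.02 and 0.00 over all probes. The comparisons share arrays, and so do not give independent counts.

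**Figure D3:**
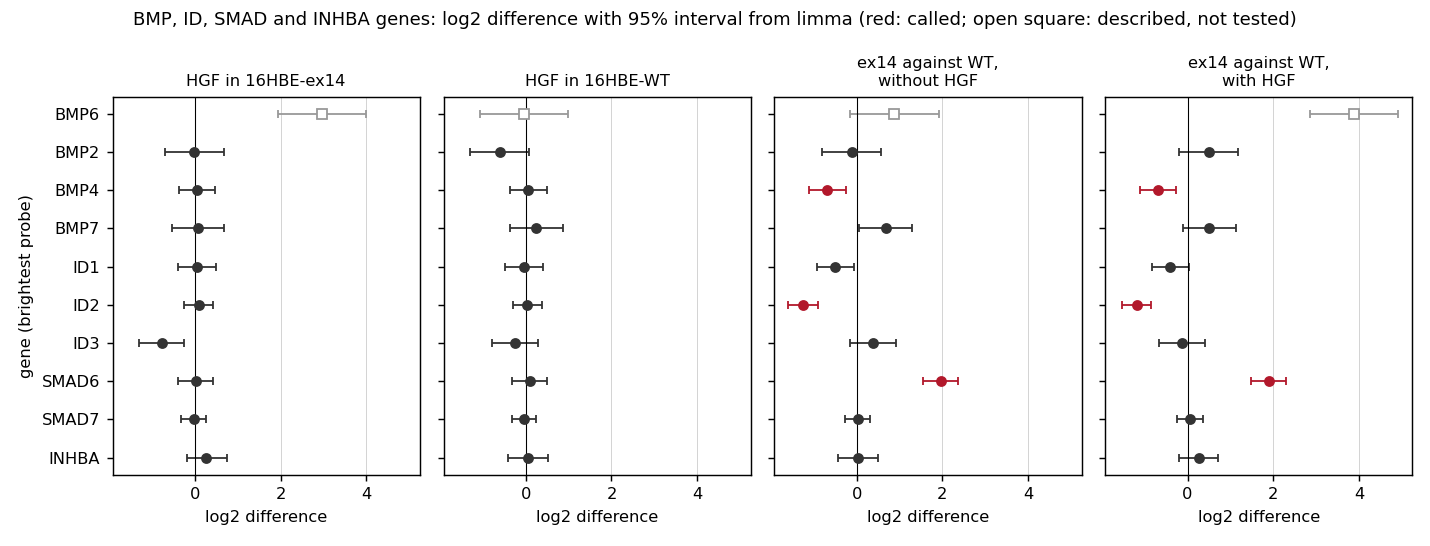
Log2 difference (x axis) with its 95% interval from limma for the brightest probe of each of the 10 genes (y axis) in 4 comparisons, with called genes in red and BMP6, which was chosen for this pattern and lies at background in 16HBE-WT cells, as open squares without a test. No tested gene passed both limits upon HGF in either genotype, while BMP4 (-0.68), ID2 (-1.25) and SMAD6 (1.96) differed between genotypes without HGF.

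The rest of the pathway was read from 81 further genes, of which 79 were on the array and 53 were tested. Upon HGF in 16HBE-ex14 cells 2 were higher and 4 lower, or 6 of 53, beside 2.00% of all probes. In 16HBE-WT cells and for the difference between the responses limma called none of the 53. Between genotypes 7 were higher and 6 lower in 16HBE-ex14 cells without HGF, and 8 higher and 9 lower with HGF, or 8 and 4 and 8 and 6 with scaling to the array median. These were 13 of 53 without HGF, beside 9.40% of all probes, and 17 of 53 with HGF, beside 10.8%. The genes were read by their brightest probe, and nothing particular to the pathway is read from these shares. The median log2 difference of the 53 genes was 0.05 upon HGF in 16HBE-ex14 cells, -0.02 between genotypes without HGF and 0.00 with HGF, the same as over all probes.

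The 6 genes called upon HGF in 16HBE-ex14 cells were the antagonists NOG, BMPER, FSTL1 and BAMBI, the ligand TGFB2 and the target ID4. In 16HBE-WT cells, where none was called, their HGF differences had the same signs. They were 0.11 (NOG), 0.35 (BMPER), -0.33 (FSTL1), -0.44 (BAMBI), -0.76 (TGFB2) and -0.21 (ID4). NOG, which encodes noggin, a protein that binds BMPs and blocks their receptors, rose in 16HBE-ex14 cells from a mean of 2.41 ± 0.18 to 3.56 ± 0.26 (SD, n = 4; log2 difference 1.15, SE 0.18, limma adjusted p = 0.00335). BMPER, a secreted BMP binding protein, rose from -1.05 ± 0.36 to 0.15 ± 0.27 (1.20, SE 0.17, adjusted p = 0.00195). FSTL1, a follistatin-like protein that binds BMP4, fell from 4.81 ± 0.25 to 3.90 ± 0.20 (-0.91, adjusted p = 0.00784). BAMBI, a pseudoreceptor without kinase activity, fell from 2.67 ± 0.23 to 2.04 ± 0.05 (-0.63, adjusted p = 0.0163).

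In all, 2 of 10 tested antagonists rose and 2 fell, beside a list median of -0.03. Of 6 other activin and TGF-beta ligands, TGFB2 fell, from -1.46 ± 0.22 to -3.14 ± 0.58 (-1.68, SE 0.28, limma adjusted p = 0.00455). ID4, the ID gene outside the main set, fell from 2.38 ± 0.31 to 1.51 ± 0.24 (-0.87, SE 0.18, adjusted p = 0.0176) and was the only gene called among 9 other BMP targets. For NOG, BMPER, FSTL1, TGFB2, BAMBI and ID4 the stimulated and unstimulated 16HBE-ex14 arrays did not overlap. These genes were picked by their call on the same arrays, so the 8.84% of all probes without overlap is no like comparison. BMP5 and SMURF2 were among further genes of these lists that did not overlap either, though not called upon HGF. None of 8 other BMP and GDF ligands, 10 receptors and co-receptors and 10 SMAD transducers and regulators was called.

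BAMBI and ID4 were called less firmly than the other 4. BAMBI was lost without 16HBE-ex14 replicates 2 or 4 or 16HBE-ex14+HGF replicate 3 (limma adjusted p 0.0559 to 0.0673), and ID4 without 16HBE-ex14 replicates 2 or 4 or 16HBE-ex14+HGF replicates 3 or 4 (0.0604 to 0.0697). With only the arrays compared in the fit the adjusted p was 0.0675 for BAMBI and 0.0761 for ID4, and BAMBI had 0.0763 when arrays were scaled to the E1A probes.

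Between genotypes, the other ligands BMP5 and GDF15 were higher in 16HBE-ex14 cells, and the inhibin and activin subunits INHA and INHBB were lower. BMP5, a close relative of BMP6, had means of -2.97 ± 0.23 in 16HBE-WT and -0.93 ± 0.20 in 16HBE-ex14 cells (2.04, SE 0.20, limma adjusted p = 9.24e-06), and -3.29 ± 0.46 and -1.47 ± 0.16 with HGF (1.83, SE 0.20, adjusted p = 1.99e-05). GDF15, a stress-induced cytokine, differed by 1.42 without and 1.40 with HGF (adjusted p = 4.23e-05 and 3.93e-05). INHBB, the subunit of activin B, differed by -1.79 and -1.76 (adjusted p = 0.000827 and 0.000802), and INHA by -0.91 and -1.26 (adjusted p = 0.0192 and 0.00234). TGFB2 was lower with HGF (-1.67, adjusted p = 0.000608).

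Of the signal carriers, SMAD1 was higher in 16HBE-ex14 cells by 0.80 without and 0.79 with HGF (SE 0.10 each, limma adjusted p = 9.97e-05 and 8.52e-05). The type I receptor BMPR1A was higher by 0.81 and 0.64 (adjusted p = 1.9e-05 and 0.000104), with 2 and 3 of its 4 tested probes called. The type II receptor ACVR2A was higher by 0.75 and 0.65 (adjusted p = 0.00302 and 0.00662). BMPR2, another type II receptor, was lower with HGF (-0.60, adjusted p = 0.00827). The SMAD ubiquitin ligases SMURF1 and SMURF2 were higher with HGF by 0.67 and 0.66 (adjusted p = 0.0243 and 0.00693). Under normexp background correction ACVR2A lost both calls, and BMPR2, SMURF1 and SMURF2 lost theirs with HGF, as did BMP5 and INHBB, while INHA lost both.

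Antagonists were called in both directions. The targets called among the 9 tested outside the main set were lower. In the main set, SMAD6 was higher (1.96 without and 1.89 with HGF) and ID2 lower (-1.25 and -1.19). NOG was higher in 16HBE-ex14 cells by 0.65 without and 1.69 with HGF (limma adjusted p = 0.0199 and 1.8e-05), DAND5, a secreted antagonist, by 0.60 without HGF (adjusted p = 0.0051). BAMBI differed by -0.81 and -1 (adjusted p = 0.000564 and 9e-05), and FSTL1 by -1.07 with HGF (adjusted p = 0.000324). The BMP target RUNX2, a bone transcription factor, differed by -1.03 and -0.63 (adjusted p = 0.000412 and 0.0101), and its other tested probe was called in neither comparison. ATOH8, a target of BMP signalling in endothelium and liver, differed by -1.08 and -0.59 (adjusted p = 0.000695 and 0.0278), DLX3 by -1.02 without HGF (adjusted p = 0.0433) and GATA2 by -0.72 with HGF (adjusted p = 0.000714). With normexp, DAND5 and DLX3 fell under the fold limit without HGF, RUNX2 and GATA2 with HGF, and ATOH8 in both. Of the 9 tested targets of this list, 0 were called higher and 3 lower in 16HBE-ex14 cells without HGF, and likewise with HGF. Over all probes, 9.40% and 10.8% were called in either direction, so with 9 genes nothing is read from the lack of higher calls. The list medians were -0.37 without and -0.21 with HGF, beside -0.02 and 0.00 over all probes.

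**Figure D4:**
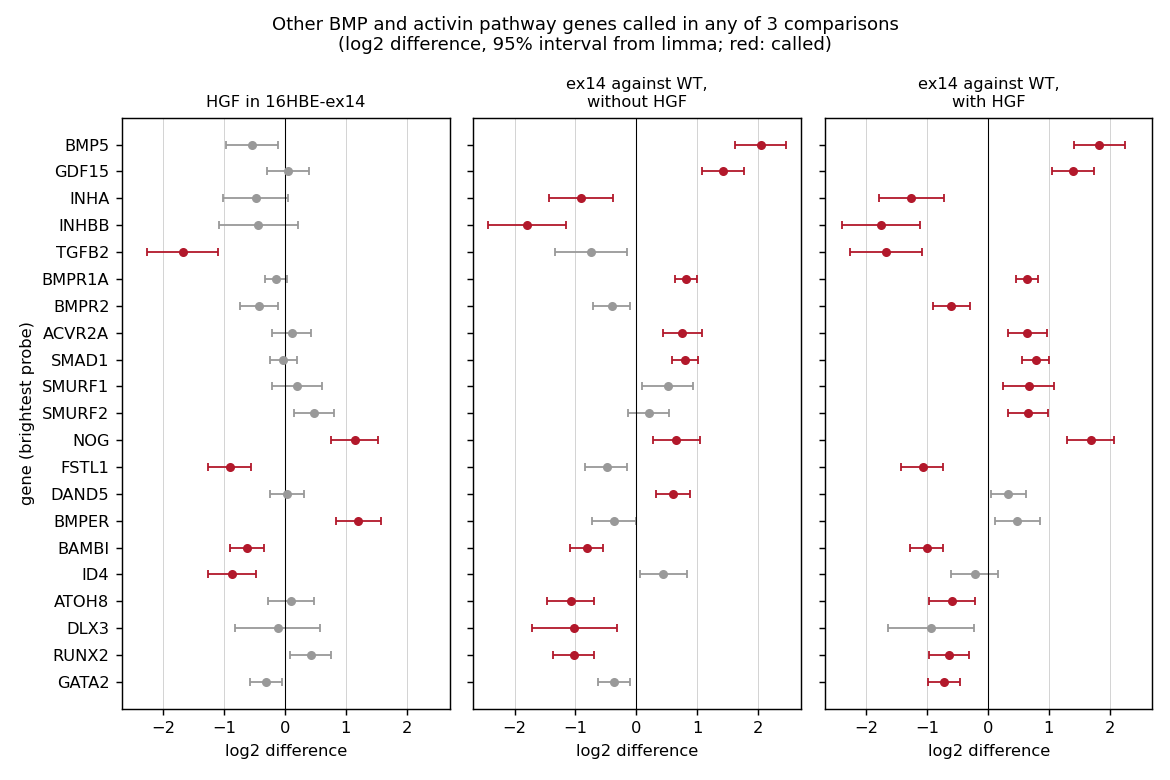
Log2 difference (x axis) with its 95% interval from limma for the 21 further pathway genes (y axis) called in at least 1 of 3 comparisons, with called differences in red. NOG (1.15) and BMPER (1.20) rose and TGFB2 (-1.68) fell upon HGF in 16HBE-ex14 cells, and BMP5 (2.04) and INHBB (-1.79) had the largest differences between genotypes without HGF.

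Cell type markers moved with the same comparisons, and their part in these results was not tested. The basal keratin KRT5 fell upon HGF in 16HBE-ex14 cells (log2 difference -2.32, limma adjusted p = 0.000147) and was lower in 16HBE-ex14 than in 16HBE-WT cells (-2.57, adjusted p = 6.29e-07, without HGF). KRT14 did likewise (-0.97, adjusted p = 0.0283, and -1.74, adjusted p = 9.27e-05). Of the other 6 epithelial markers none passed both limits, and KRT19 (between genotypes) and CDH1 (upon HGF) lay just under the fold limit. Upon HGF in 16HBE-ex14 cells the basal factor TP63 differed by 0.43, KRT8 by 0.35, KRT18 by 0.15, EPCAM and KRT19 by 0.08 and CDH1 by -0.58, and between genotypes without HGF TP63 differed by -0.07, KRT8 by 0.19, KRT18 by -0.01, EPCAM by -0.24, KRT19 by -0.58 and CDH1 by 0.38. LUM, a fibroblast marker, was well above background on all 8 arrays of unedited cells and on none of the edited clone. Its floored fold, computed as for BMP6, was 3.06-fold lower without HGF. LUM passed the filter on dim probes only through the unedited arrays, so no test is given for it. CD3E, an immune cell marker, differed by -0.98 (limma adjusted p = 0.0242).

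Summed as linear signals in units of the 75th percentile, the 8 epithelial markers ranged from 1610 to 1910 without and 1710 to 2040 with HGF in 16HBE-WT cells, and from 1520 to 1670 without and 1550 to 1840 with HGF in 16HBE-ex14 cells. The 7 fibroblast markers summed to 0.558 to 1.05, 0.576 to 0.813, 0.334 to 0.517 and 0.411 to 0.431 in the same order. The 5 endothelial markers summed to 0.416 to 0.62, 0.297 to 0.508, 0.409 to 0.546 and 0.278 to 0.513, and the 6 immune cell markers to 0.911 to 1.59, 1.01 to 1.29, 0.775 to 1.29 and 0.887 to 1.37. The fibroblast sums of the genotypes thus did not overlap, and the other sums did.

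The genes whose signals followed BMP6 most closely over the 16 arrays were STX1A, RAC2, SLC33A1, TMEM61 and DNAJC3, each with a Pearson correlation of 0.92 (the highest of 26367 genes). RAC2, a small GTPase, went from a mean of 2.83 in 16HBE-WT to 3.72 in 16HBE-ex14+HGF cells, and DNAJC3, a co-chaperone of the endoplasmic reticulum, went from 1.72 to 2.59. The lowest correlations were those of MAL and RAB13 (-0.94) and of NEDD9, S100A12 and AMIGO2 (-0.93). NEDD9, an adhesion scaffold protein, had means of 1.91 and 1.88 in 16HBE-WT cells without and with HGF and of 1.04 and 0.01 in 16HBE-ex14 cells.

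Within the conditions, after subtracting each condition's mean, these correlations were 0.42 to 0.58 for the first 5 genes and -0.73 to -0.52 for the last 5. The genes were picked on the same arrays, deviations within conditions included, so these values are no separate check. The 16 points share 4 condition means, and at the low signals of BMP6 in unedited cells they share the background. Of the other 9 genes of the set, SMAD6 had the highest correlation with BMP6 (0.68) and ID2 the lowest (-0.57), while ID1 had -0.28, over the same 16 arrays.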

How the data were processed

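Gene expression was measured on 16 single-colour Agilent arrays of 60-base probes, 4 for each of 4 conditions. The authors deposited scanner output of Agilent Feature Extraction 10.7.3.1, whose processed intensity is linear, background-subtracted and detrended, with no scaling from array to array. Their joint value table held identical values at all 62976 spots (relative tolerance 1e-04). The authors used limma in R, and their normalization between arrays and filter on dim probes are not given in the sources used here.

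From these values, spots marked as non-uniform or population outliers (0.112%) were dropped. The log2 of each intensity was set relative to the 75th percentile of the 60901 non-control spots of its array, and replicate spots were averaged. Probes above background on 4 or more of the 16 arrays entered the test, made with limma 3.58.1 in R 4.3.3, with data.table version 1.17.8, jsonlite 2.0.0, Python 3.11.15, matplotlib 3.10.9 and pandas 2.3.3. A mean per condition was fitted over the 16 arrays with empirical Bayes moderation, with Benjamini-Hochberg adjustment over all tested probes in each of 5 comparisons. Calls needed an adjusted p below 0.05 and a fold change above 1.5 (0.58 on the log2 scale). A gene is represented by its brightest tested probe. Simulated data with 200 changed probes served to test the fit.

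The 10 genes, the lists of pathway genes and markers and the tests were chosen with earlier results of these data known. Named are all 10 genes with their probes, every further pathway gene called in any comparison, MET and HGF, and the 5 genes most and least correlated with BMP6. LUM, CD3E, KRT5, KRT14 and the markers below background were named after their values were seen. HFE2, NBL1 and CD68 of the lists have no probe under these names. The alternatives were normexp on mean and background signals (offset 50), scaling to 7 E1A spike-in probes or to the array median, quantile normalization, no filter and a filter for all arrays of a condition, outlier spots kept, a trended and robust prior, slide or slide row as a block, only the arrays compared, the mean of a gene's probes, and leaving out each array. A percentile over spots without outlier marks was added after seeing the data. Arrays carry no counts, so their number limits the precision. Promoters are from RefSeq. Symbols are those of the array files, and all 10 were found by accession in the RefSeq gene list.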

Additional observations from a re-analysis of the deposited data

Results flagged for a closer look

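INHBA stood out by 1 array. Among the 4 16HBE-WT arrays the highest read 4.54 on the log2 scale, and the next highest read 3.78, so that this gap took 0.94 of the range of the group. The rule that flagged it marks about 1 of 20 groups of 4 by chance, and 40 groups (10 genes in 4 conditions) were examined. How rare a gap of 0.94 itself is was not computed. Its part in the INHBA comparisons is given with the left-out arrays below, and the cause was not tested.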

How the results depend on the processing

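There were 10 counts of called genes, from 5 comparisons for the members and for the 53 other pathway genes. The member count for HGF in 16HBE-WT cells took in BMP6, which was at background there. The counts upon HGF stayed within 1.5 times under all 13 alternatives. Those for the difference of the responses did so under the 12 that could be run. The alternatives include the percentile without outlier spots, added after seeing the data. With normexp background correction, which shrinks differences of dim probes, the genotype comparisons called 1 member without and 1 with HGF in place of 3, and 8 and 7 other pathway genes in place of 13 and 17. Leaving out 1 array gave 0 to 1 called members upon HGF in 16HBE-ex14 cells (1 without 16HBE-ex14+HGF replicate 1), 2 to 3 and 2 to 4 between genotypes, and 4 to 6, 9 to 14 and 15 to 18 other pathway genes. Blocking on the slide or on the slide row moved no count past 1.5 times. Each slide row held 1 array of every condition and coincides with the replicate numbers used here, which follow accession order, so the fit with the slide row is also the replicate block. It called 3 and 3 members and 14 and 18 other pathway genes between genotypes, and 0 members and 6 other pathway genes upon HGF in 16HBE-ex14.

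Sign changes concerned differences that were not called or, for BMP6, not tested. With normexp, those not close to 0 before were BMP6 (0.88) and BMP7 (0.68) between genotypes without HGF and BMP7 (0.51) and BMP2 (0.49) with HGF. With normexp, BMP6 read 0.02 for HGF in 16HBE-WT, where it was at background. The other values with normexp were BMP2 (0.01) for HGF in 16HBE-ex14, and BMP6 (-0.12) and BMP7 (-0.05) between genotypes without HGF. Between genotypes with HGF they were BMP2 (-0.12) and BMP7 (-0.12). With quantile normalization they were BMP4 (-0.01), BMP7 (-0.06) and SMAD6 (-0.02) for HGF in 16HBE-ex14, SMAD6 for HGF in 16HBE-WT (-0.05) and for the difference of the responses (0.03), and INHBA between genotypes without HGF (-0.04). Scaling to the array median moved the median of all probes from 0.05 to -0.11 for HGF in 16HBE-ex14, from 0.04 to -0.08 in 16HBE-WT and from -0.02 to 0.12 between genotypes without HGF. It gave BMP4 (-0.10), BMP7 (-0.09), ID1 (-0.10), ID2 (-0.06) and SMAD6 (-0.13) for HGF in 16HBE-ex14, BMP4 (-0.05), ID2 (-0.08), SMAD6 (-0.03) and INHBA (-0.06) in 16HBE-WT, BMP2 (0.02) between genotypes without HGF and SMAD7 (-0.02) for the difference of the responses. Scaling to the E1A spike-ins gave BMP4 (-0.01), ID1 (-0.01) and SMAD6 (-0.04) for HGF in 16HBE-ex14 and SMAD7 (-0.02) for the difference.

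With 1 array left out, uncalled differences that changed sign ranged, for HGF in 16HBE-ex14, from -0.20 to 0.10 (BMP2), -0.02 to 0.19 (BMP4), -0.04 to 0.21 (ID1), -0.02 to 0.18 (ID2), -0.08 to 0.11 (SMAD6) and -0.09 to 0.06 (SMAD7). For HGF in 16HBE-WT, BMP6, at background there, ranged from -0.56 to 0.18. The other ranges for HGF in 16HBE-WT were -0.07 to 0.20 (BMP4), -0.14 to 0.47 (BMP7) and -0.15 to 0.16 (ID1). They were -0.09 to 0.12 for ID2, -0.02 to 0.25 for SMAD6, -0.15 to 0.07 for SMAD7 and -0.09 to 0.25 for INHBA. Without HGF, genotype differences ranged from -0.28 to 0.07 (BMP2) and -0.04 to 0.23 (INHBA), and with HGF from -0.34 to 0.01 (ID3) and -0.06 to 0.17 (SMAD7). For the difference of the responses the ranges were -0.40 to 0.21 (BMP7), -0.10 to 0.25 (ID1), -0.05 to 0.18 (ID2), -0.22 to 0.05 (SMAD6) and -0.09 to 0.14 (SMAD7).

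Calls of other pathway genes between genotypes that rested on single arrays were DLX3 without HGF (lost in 10 of 16 such fits, adjusted p from 0.0503 to 0.127), ATOH8 with HGF (6 fits, 0.0555 to 0.0872), SMURF1 with HGF (4 fits, 0.0654 to 0.0715), INHA and NOG without HGF (3 fits each, 0.0552 to 0.0634 and 0.054 to 0.0661), and DAND5, RUNX2, BMPR2 and ACVR2A, which fell under the fold limit in 3, 3, 2 and 1 fits. Under other settings DLX3 was also lost in 5 of them (quantile, array median, spike-ins, no filter, only the arrays compared), ATOH8 with HGF under 3 scalings, BMPR2 with HGF under 2, INHA without HGF and RUNX2 with HGF under array median scaling, and NOG without HGF and SMURF1 with HGF with only the arrays compared. The limit of these data is signal over background: a log2 value of -4.4 (median over arrays) was the lowest called well above background. BMP6 in unedited cells and 2 BMP7 probes were so on no array, and the second INHBA probe on 2 of 16. The causes were not tested.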
